A study of Mus musculus with 6 samples.

Results

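The mitochondrial ribosome is the ribosome inside mitochondria, and its protein components are encoded by nuclear Mrpl and Mrps genes. They were taken here as every probe set whose gene symbol begins with Mrpl or Mrps followed by a number, which gave 76 of the 22206 probe sets on the array, 1 for each of 76 genes. RefSeq holds 78 symbols of this form apart from those marked as pseudogenes, and Mrpl53 and Mrps6 had no probe set. Of the 76 genes, 50 encode proteins of the large subunit and 25 proteins of the small subunit. Mrps36 was not placed in either, because its product is known as a component of the 2-oxoglutarate dehydrogenase complex. The genes lie on 17 chromosomes.

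Expression was measured with Affymetrix Clariom S arrays in mouse HoxB8 neutrophil progenitors, which are myeloid progenitors kept immature by the transcription factor Hoxb8. The cells expressed either the K313 form of C/EBPα (K313, 3 arrays) or its wild-type form (WT, 3 arrays). All 6 samples were taken after 1 day in the same differentiation medium, which contained serum and SCF supernatant. C/EBPα is a transcription factor of granulocyte formation, K313 is a mutation found in acute myeloid leukaemia, and the series asks how it alters the activity of the factor. The labels do not say whether the cells are clones, how the C/EBPα forms were introduced, or whether each replicate is its own culture. The p-values below therefore rest on the variation among these 6 arrays, part or all of which may be technical.

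Mitochondrial ribosomes translate the few messenger RNAs of the mitochondrial genome, which encode core subunits of the respiratory chain and of ATP synthase. Their ribosomal RNAs come from mitochondrial DNA, whereas all of their proteins are made in the cytosol and imported. Many of these proteins have counterparts in bacteria, and the others were added during the evolution of mitochondria and surround an RNA core that is shorter than in bacteria.

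Promoters are shown because the genes of this family share a regulatory background: NRF1, the ETS factor GABPA and YY1 are known activators of nuclear genes for mitochondrial proteins. Promoter sequences were taken from RefSeq with the coordinates of GRCm38.p6, and 67 of the 76 genes had 1 or more in the table, 73 in all. The 250 bases before each start were searched on both strands for NRF1 (GCGCA and GCGC with any base between them), ETS (CCGGAAGT), YY1 (ATGGCGGC), an E-box (CACGTG) and C/EBP (TTGCNNAA). Mrpl58 (chr11:115403502-115403751, + strand) and Mrpl55 (chr11:59202236-59202485, + strand) are printed because they changed between the groups, and their windows held none of the 5 motifs. Mrpl9 (chr3:94443086-94443335, + strand) is printed as an example of an NRF1 match and Mrps26 (chr2:130563507-130563756, + strand) as an example of an ETS match, both picked after their values were seen. Capitals mark the match, and each line runs 5′ to 3′ and ends at the base before the start.
Mrpl58: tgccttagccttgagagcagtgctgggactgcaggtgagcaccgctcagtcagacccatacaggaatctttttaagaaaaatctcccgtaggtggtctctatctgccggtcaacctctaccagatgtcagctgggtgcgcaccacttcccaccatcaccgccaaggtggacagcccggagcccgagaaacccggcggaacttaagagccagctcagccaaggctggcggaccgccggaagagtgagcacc
Mrpl55: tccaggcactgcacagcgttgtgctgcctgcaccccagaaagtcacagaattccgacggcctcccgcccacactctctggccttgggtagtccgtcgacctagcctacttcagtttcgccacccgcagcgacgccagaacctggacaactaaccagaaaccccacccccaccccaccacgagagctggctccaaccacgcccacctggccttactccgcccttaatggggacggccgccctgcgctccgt
Mrpl9: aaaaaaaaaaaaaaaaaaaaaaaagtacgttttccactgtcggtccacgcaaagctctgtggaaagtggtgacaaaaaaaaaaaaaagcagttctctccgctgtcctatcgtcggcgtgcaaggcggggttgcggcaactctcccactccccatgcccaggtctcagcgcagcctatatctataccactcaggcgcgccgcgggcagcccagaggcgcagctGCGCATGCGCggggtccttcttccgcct
Mrps26: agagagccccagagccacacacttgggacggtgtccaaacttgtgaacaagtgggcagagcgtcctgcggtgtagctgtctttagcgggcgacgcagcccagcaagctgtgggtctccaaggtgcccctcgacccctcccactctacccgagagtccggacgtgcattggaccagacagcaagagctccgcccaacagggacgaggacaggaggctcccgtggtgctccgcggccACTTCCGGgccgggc

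The NRF1 match of Mrpl9 lies 28 to 19 bases before the start, and the ETS match of Mrps26 lies 15 to 8 bases before it, on the opposite strand. NRF1 matches were found in 13.7% of the mitochondrial ribosomal protein windows, against 3.74% of all 32851 windows in the table and 5.48% of the windows of genes on the array. ETS matches were found in 13.7% of the mitochondrial ribosomal protein windows as well, against 2.88% of all windows and 3.95% of those of genes on the array. C/EBP matches were present in 4.11% of the family's windows, against 9.56% of all windows and 9% of those of genes on the array. The E-box was present in 9.59% of the family's windows, against 6.02% of all windows, but several of these windows belong to Mrpl2. Counted by gene, it was in 5 of 67 (7.46%), against 7.92% of genes on the array. YY1 was present in 1.37%, against 1.03% of all windows and 1.27% of those of genes on the array. The median GC content was 58.4% in the family's windows, against 52.4% in all windows and 56% in those of genes on the array, and the part of base composition in these shares was not tested. No matches of different motifs overlapped each other in the family's windows. Among the other families, NRF1 matches were in 18.7% of 75 windows of nuclear oxidative phosphorylation genes and in 0 of 63 windows of cytosolic ribosomal protein genes. ETS matches were in 4% and 11.1% of the same windows.

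**Figure D1:**
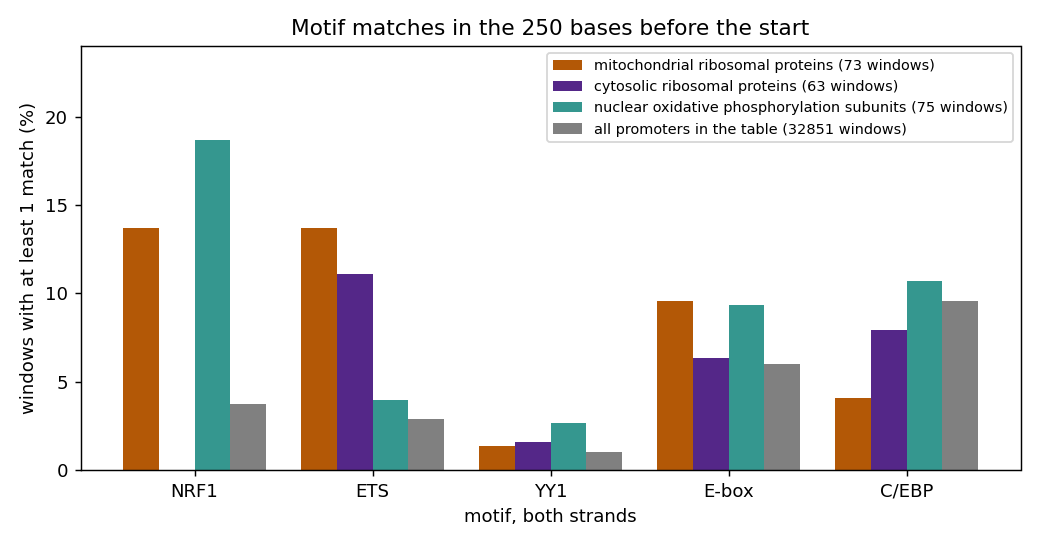
Share of promoter windows (%, y axis) with at least 1 match to each of 5 motifs (x axis) in the 250 bases before the start, for 3 gene families and for all promoters in the table; the bars have no error because they count windows. The mitochondrial ribosomal protein windows hold NRF1 and ETS matches in 13.7% each, and all windows in 3.74% and 2.88%.

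Before the results, features of the whole series that touch them are given. The array-wide correlation was 0.983 to 0.989 between a K313 and a WT array, 0.995 to 0.996 among K313 arrays and 0.994 to 0.995 among WT arrays (Pearson's r across 22206 probe sets, which are not independent). Cebpa had log2 values of 13.85, 13.90 and 14.45 in K313 and of 14.53, 14.85 and 14.35 in WT, a difference of -0.51 ± 0.21 (SE, adjusted p = 0.212). Whether its probes read the introduced transcript is not known here. Neutrophil progenitor markers were high in both groups (Mpo averaged 18.42 in K313 and 18.41 in WT), with Elane, Ctsg, Prtn3 and Ms4a3 higher and Csf3r lower in K313. Kit (-0.62) and Cebpe (-0.04) were not called, and all K313 values of Kit lay below its WT values. The summed level of all 8 of these markers, as the log2 of the summed linear values, was 19.26 to 19.31 in K313 and 18.83 to 18.93 in WT. The summed level of a list is carried by its brightest probe sets, so single members are given beside it. For 7 basophil and mast cell markers the summed level was 17.00 to 17.20 in K313 and 17.53 to 17.82 in WT. Of these, Prss34 was higher (by 3.98) and Cd200r3 (-4.03), Mcpt8 (-1.63) and Gata2 (-1.47) were lower in K313. Cpa3 (-0.42), Ms4a2 (0.17) and Fcer1a (0.02) were not called, and all K313 values of Cpa3 lay below its WT values. For 5 monocyte and macrophage markers the summed level was 12.92 to 14.03 in K313 and 11.87 to 12.05 in WT. Of these, Cd14 (4.45), Ly6c2 (1.77) and Ccr2 (0.87) were higher and Adgre1 (-0.78) was lower in K313, and Csf1r (-0.41) was not called. For 4 erythroid and megakaryocyte markers the summed level was 8.15 to 8.74 in K313 and 10.98 to 11.28 in WT. Of these, Gata1 (-3.69) and Itga2b (-1.09) were lower in K313, and Klf1 (-0.47) and Pf4 (0.38) were not called. All K313 values of Pf4 lay above its WT values. For 3 lymphocyte markers the summed level was 6.32 to 6.73 in K313 and 9.30 to 10.02 in WT. Of these, Cd79a (-1.40) and Cd79b (-3.93) were lower in K313, and Cd3e (0.10) was not called. Of 6 proliferation markers 0 were called (against 7.75% of all probe sets), with changes of -0.28 to 0.07. Their summed level was 17.59 to 17.76 in K313 and 17.72 to 17.92 in WT. No marker can be read as 0 on an array, and the lowest in each group were Cd3e (3.45 in K313 and 3.35 in WT) and Fcer1a (3.64 in K313 and 3.63 in WT). All 3 measured Y-linked genes were higher in K313. Uty had 12.37, 11.67 and 11.97 in K313 and 3.72, 3.78 and 6.81 in WT, so WT replicate 3 stood apart from the other WT arrays. The part of these differences in the results below was not tested, and results are also given without WT replicate 3.

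Of the 76 mitochondrial ribosomal protein genes, 4 were higher in K313, 0 were lower and 72 did not pass the test. The 4 were Mrpl19, Mrpl58, Mrps34 and Mrpl55, with rises between 1.55-fold and 2.48-fold. A gene was called when its Benjamini-Hochberg adjusted p over all probe sets in limma was under 0.05. The 4 calls are 5.26% of the family, against 7.75% of all 22206 probe sets, and the calls in the family were all rises (the background for rises was 3.77% and for falls 3.97%). At an unadjusted p under 0.05, 11 genes were higher and 2 lower (17.1% in all, against 17.8% of all probe sets, and 14.5% higher, against 8.79%). Among the 8968 probe sets within the family's range of mean levels, 13.8% were called, 547 of them higher and 688 lower in K313. A change of at least 1.5-fold was seen in 4 of 76 genes (5.26%), against 10.4% of all probe sets and 18.3% of those in the same range of levels. In bulk RNA, fewer cells of a type and less RNA per cell cannot be told apart.

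The median change of the family was 0.10 (K313 minus WT, log2), with an interquartile range of -0.09 to 0.26 and extremes of -0.53 and 1.31. Over all probe sets the median was 0.02. The difference was positive for 48 of the 76 genes (63.2%, against 52.2% of all probe sets). With every array shifted to a common median it was positive for 39, and the family's median was then 0.02, against -0.06 for all probe sets. The change was under 0.25 in size for 50 genes (65.8%, against 64% of all probe sets). The 95% interval lay wholly within 1.5-fold either way for 34 genes (44.7%, against 49.7% of all probe sets). For 32 genes, the called ones among them, it reached past 1.5-fold upward and for 10 genes past 1.5-fold downward. The interval of Mrpl19 lay wholly above 1.5-fold. For the rest of these genes a change of that size lies within the error with 3 arrays per group.

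**Figure D2:**
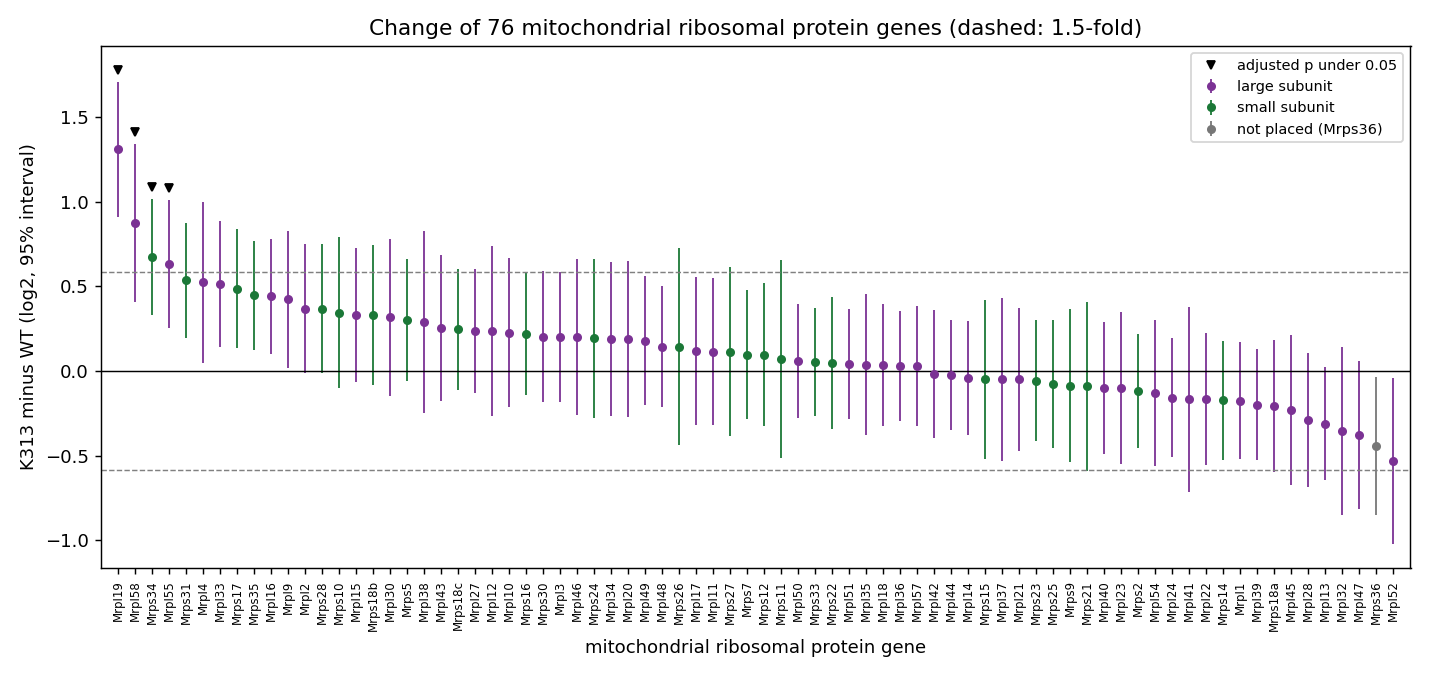
Change of each of the 76 genes (K313 minus WT, log2, y axis) with its 95% interval from limma, in order of the change (x axis), coloured by subunit; triangles mark an adjusted p under 0.05 and dashed lines a 1.5-fold change. The changes run from 1.31 for Mrpl19 to -0.53 for Mrpl52, and 4 genes are marked.

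Mrpl19, the counterpart of the bacterial protein L19 of the large subunit, changed most. Its log2 values were 14.70, 14.58 and 14.60 in K313 and 13.56, 12.97 and 13.42 in WT. The K313 arrays lay close together and more than 1 log2 unit above the highest WT array. The means were 14.63 ± 0.06 in K313 and 13.32 ± 0.31 in WT (SD, n = 3 each), a difference of 1.31 ± 0.18 (SE) or 2.48-fold, with a 95% interval of 0.91 to 1.71 and an adjusted p of 0.000739 in limma. The gene was called in 13 of 14 alternative fits, including all 6 that left out an array, and its change stayed between 1.14 and 1.43. Without WT replicate 3 it was 1.36 (adjusted p = 0.00303). The adjusted p ranged from 8.02e-05 to 0.0668 over the alternatives.

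Mrpl58 encodes a large-subunit protein of the central protuberance that is related to release factors and is known as a peptidyl-tRNA hydrolase that frees stalled mitochondrial ribosomes (also named ICT1). Its log2 values were 11.32, 11.91 and 12.05 in K313 and 11.10, 10.66 and 10.90 in WT. The groups did not overlap, but K313 replicate 1 lay nearer to the WT arrays than to the other K313 arrays. The difference was 0.87 ± 0.21 (SE) or 1.83-fold, with a 95% interval of 0.41 to 1.34 and an adjusted p of 0.0277. The call ended when K313 replicate 2, K313 replicate 3, WT replicate 2 or WT replicate 3 was left out (adjusted p = 0.119, 0.122, 0.0943 and 0.0767 in that order, with changes of 0.73 to 0.88). Over all alternatives the adjusted p ran from 0.00801 to 0.248.

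Mrps34, a small-subunit protein without a bacterial counterpart that is needed for a stable small subunit, was the third. Its log2 values were 10.10, 10.24 and 10.38 in K313 and 9.51, 9.66 and 9.53 in WT. All K313 values lay above all WT values. The difference was 0.67 ± 0.15 (SE) or 1.59-fold, with a 95% interval of 0.33 to 1.01 and an adjusted p of 0.0202. The call ended without K313 replicate 2, K313 replicate 3, WT replicate 1 or WT replicate 3 (adjusted p = 0.0739, 0.0842, 0.0644 and 0.0690 in that order, over a range of 0.0167 to 0.0842 across alternatives).

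Mrpl55, a large-subunit protein, had log2 values of 10.00, 10.41 and 10.48 in K313 and 9.59, 9.74 and 9.67 in WT. The groups did not overlap, and K313 replicate 1 was again the lowest of its group. The difference was 0.63 ± 0.17 (SE) or 1.55-fold, with a 95% interval of 0.25 to 1.01 and an adjusted p of 0.0495, just under the threshold. It was called in 5 of 14 alternatives. It was not called when K313 replicate 2 or 3 or any WT array was left out (adjusted p = 0.180, 0.183, 0.134, 0.0820 and 0.119 in that order, over a range of 0.0256 to 0.184 across alternatives).

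**Figure D3:**
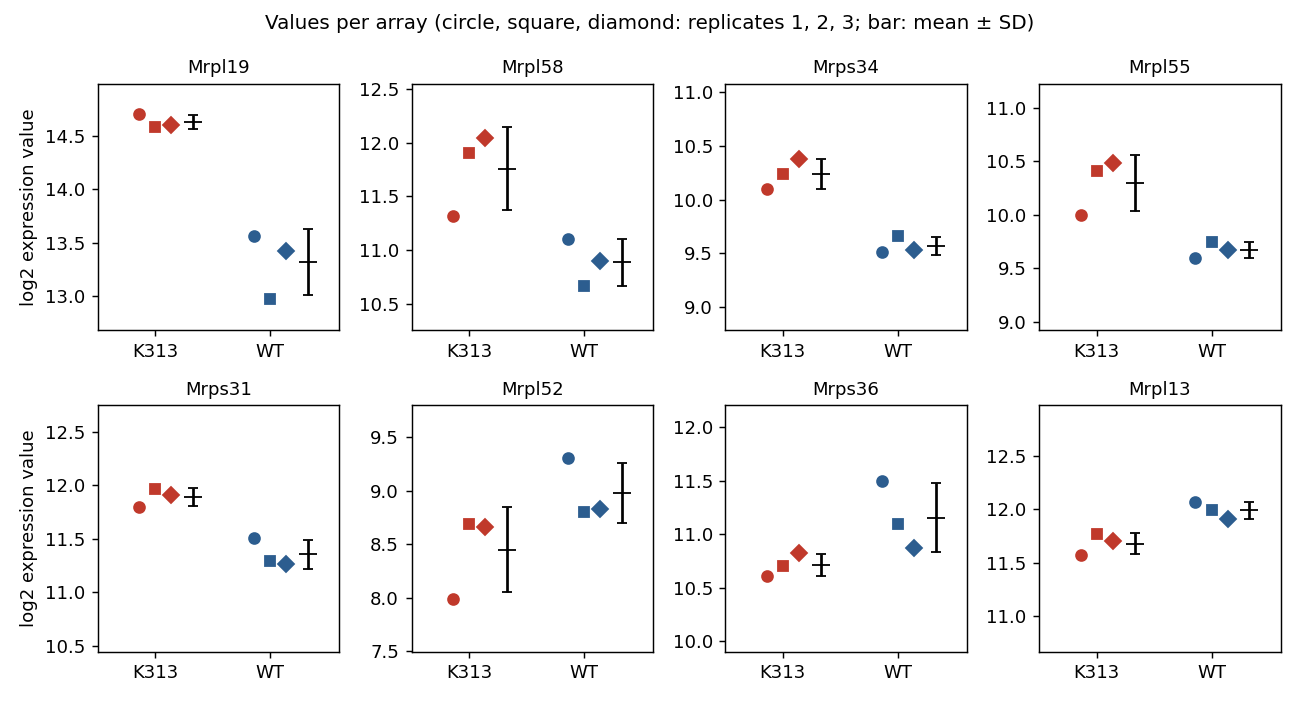
Log2 expression value (y axis, a separate range per panel that does not start at 0) of 8 genes on each K313 and WT array (x axis); circles, squares and diamonds are replicates 1, 2 and 3, and the bar is the mean with its SD (n = 3). The top row shows the 4 genes called higher in K313, and the bottom row shows Mrps31, Mrpl52, Mrps36 and Mrpl13, whose groups do not overlap but which did not pass the test.

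The genes next to these 4 in RefSeq were looked up after the calls were seen. The annotation of Gcfc2 overlaps that of Mrpl19, and Gcfc2 had log2 values of 10.56, 10.74 and 11 in K313 and 9.98, 10.11 and 10.40 in WT. Its groups did not overlap, and its difference of 0.60 ± 0.18 (SE) had an adjusted p of 0.0729. Whether probes of the pair read each other's transcripts was not tested. The neighbour of Mrpl19 on the other side, Eva1a, had a difference of 0.07. Next to Mrps34, Nme3 had a difference of 0.73 ± 0.27 (SE, adjusted p = 0.168) and Eme2 one of 0.49 ± 0.21 (SE, adjusted p = 0.246). The K313 and WT values of Eme2 did not overlap, and those of Nme3 did. Next to Mrpl55, Guk1 had a difference of 0.41 ± 0.18 (SE, adjusted p = 0.271) without overlap between its groups, and 2310033P09Rik one of 0.11. Next to Mrpl58, Cdr2l had a difference of 0.13 and Atp5h one of -0.03.

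All 3 K313 values lay above all 3 WT values for 11 of the 76 genes of the family, against 2445 of all 22206 probe sets (11%). All lay below for 4 of the 76, against 2427 of all 22206 (10.9%). Together they are 19.7% of the family, against 21.9% of all probe sets. Of the genes that stood apart in this way without a call, Mrps31, a small-subunit protein without a bacterial counterpart, was nearest to the threshold. Its values were 11.80, 11.96 and 11.91 in K313 and 11.51, 11.29 and 11.26 in WT, a difference of 0.54 ± 0.15 (SE, adjusted p = 0.0616). It passed with quantile normalization (0.0481) and with array weights (0.0464), over a range of 0.0464 to 0.201. Mrpl33, the counterpart of bacterial L33, had 15.05, 15.47 and 15.36 in K313 and 14.80, 14.91 and 14.63 in WT, a difference of 0.51 ± 0.17 (SE, adjusted p = 0.112), which passed only with an intensity trend (0.0377, over a range of 0.0377 to 0.337). Mrps35, a small-subunit protein without a bacterial counterpart, had 8.81, 8.87 and 8.77 in K313 and 8.33, 8.45 and 8.33 in WT. Its difference of 0.45 ± 0.15 (SE) had an adjusted p of 0.108 and passed only with ordinary variance (0.0443, over a range of 0.0443 to 0.280). The spread of Mrps35 within each group was small, with SDs of 0.05 in K313 and 0.07 in WT. Mrpl4, the counterpart of bacterial L4, overlapped between the groups, with 8.62, 9.25 and 9.41 in K313 and 8.79, 8.46 and 8.46 in WT. Its difference was 0.52 ± 0.22 (SE, adjusted p = 0.224), and without K313 replicate 1 it was 0.76 (adjusted p = 0.0446, over a range of 0.0446 to 0.556).

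Among the genes with lower values in K313, 0 were called in limma in the fit of all 6 arrays or in the 14 alternatives. Mrpl52, a large-subunit protein, had 7.99, 8.69 and 8.66 in K313 and 9.30, 8.80 and 8.83 in WT, a difference of -0.53 ± 0.22 (SE, adjusted p = 0.234). K313 replicate 1 was the lowest and WT replicate 1 the highest of the 6 values, and the other arrays lay closer together. Mrps36 had 10.61, 10.70 and 10.82 in K313 and 11.50, 11.09 and 10.87 in WT, a difference of -0.44 ± 0.19 (SE, adjusted p = 0.233). Mrpl13, the counterpart of bacterial L13, had 11.57, 11.77 and 11.70 in K313 and 12.07, 11.99 and 11.91 in WT, a difference of -0.31 ± 0.15 (SE, adjusted p = 0.322). Mrpl39, a large-subunit protein without a bacterial counterpart, had 8.92, 8.93 and 9.06 in K313 and 9.12, 9.26 and 9.13 in WT, a difference of -0.20 ± 0.15 (SE, adjusted p = 0.572). These 4 are the genes whose K313 values all lay below their WT values.

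Levels are not set against each other between genes, because probe sets differ in their response. The family's probe sets had mean log2 values of 6.21 to 15.29 in K313 and of 5.99 to 14.78 in WT. Mrpl33, Mrpl42 and Mrpl19 were at the upper end. Mrpl42, a large-subunit protein, averaged 14.50 in K313 and 14.52 in WT, a difference of -0.02. At the lower end, Mrps16 averaged 6.21 in K313 and 5.99 in WT (difference 0.22), Mrpl54 6.25 in K313 and 6.38 in WT (difference -0.13), and Mrpl36 6.57 in K313 and 6.54 in WT (difference 0.03). None of these 4 was called.

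By subunit, 3 of 50 large-subunit genes (6%) and 1 of 25 small-subunit genes (4%) were called higher, against 3.77% of all probe sets. Within the family's range of mean levels, 547 of 8968 probe sets were called higher. The median change was 0.05 for the large subunit and 0.11 for the small subunit, and with a common array median it was -0.03 and 0.04 in the same order. Leaving out 1 array moved the large-subunit median between 0.01 (without K313 replicate 2) and 0.16 (without WT replicate 1). It moved the small-subunit median between 0.06 (without K313 replicate 2) and 0.295 (without K313 replicate 1). The difference was positive for 30 of 50 large-subunit and 18 of 25 small-subunit genes. By ancestry, 1 of 46 genes with a bacterial counterpart was called (Mrpl19, 2.17%, against 7.75% of all probe sets), with a median change of 0.12. Of 28 genes without such a counterpart, 2 were called (Mrpl58 and Mrps34, 7.14%), with a median change of 0.05. Mrpl55 was placed in neither class.

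Groups of genes by their place in the ribosome were formed after the values had been seen and are given as values only. The proteins of the stalk, which contacts translation factors, are encoded by Mrpl10, Mrpl11 and Mrpl12, and their differences were 0.23, 0.11 and 0.24. Around the catalytic centre, where peptide bonds form, Mrpl2, Mrpl3, Mrpl16 and Mrpl27 had differences of 0.37, 0.20, 0.44 and 0.24. The lowest adjusted p among them was 0.136, for Mrpl16. Mrpl4 lines the tunnel that leads away from this centre, and its difference was 0.52. At the rim of the exit tunnel, through which the new protein leaves, Mrpl17, Mrpl22, Mrpl23, Mrpl24 and Mrpl47 had differences between -0.38 and 0.12 (median -0.16), with 1 of 5 positive and a lowest adjusted p of 0.366. In the central protuberance, Mrpl38, Mrpl40, Mrpl46, Mrpl48 and Mrpl58 had differences between -0.10 and 0.87, and Mrpl58 was the gene called. Mrps18a, Mrps18b and Mrps18c encode alternative versions of the bacterial S18 protein, of which the first sits in the large subunit, and their differences were -0.21, 0.33 and 0.25 (lowest adjusted p 0.418).

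Within each group, the family shared a pattern over the replicates. When each gene was set against its own mean over the 6 arrays, the median deviation of the family was -0.10, 0.19 and 0.12 in the K313 arrays and 0.08, -0.14 and -0.12 in the WT arrays. The median over all probe sets stayed between -0.02 and 0.01 on every array. K313 replicate 1 was the lowest K313 array for 55 of 76 genes (72.4%, against 34.9% of all probe sets), and WT replicate 1 was the highest WT array for 53 of 76 (69.7%, against 34.9%). K313 replicate 1 lay below the mean of the other K313 arrays for 69 genes, with a median gap of -0.22 over the family. WT replicate 1 lay above the mean of the other WT arrays for 61 genes, with a median gap of 0.25. With quantile normalization the counts were 63 and 51 of 76 genes, and with a common median 48 and 56. Genes on the same arrays share their RNA sample, so these counts describe the arrays and are not independent.

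**Figure D4:**
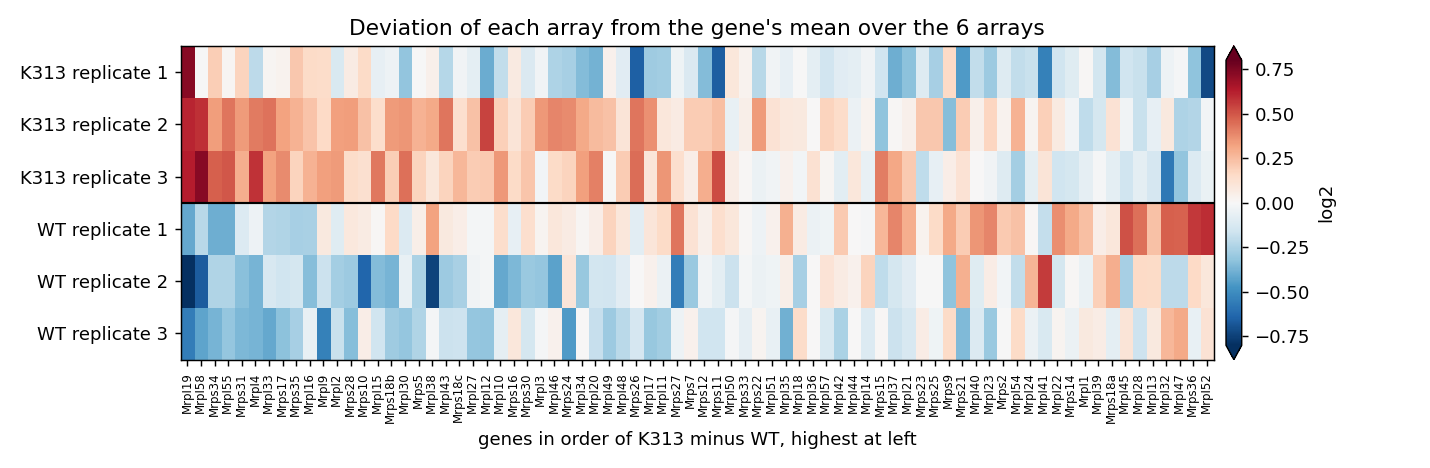
Deviation of each gene (columns, in order of K313 minus WT) from its own mean over the 6 arrays (log2, colour) on each array (rows, K313 above WT). K313 replicate 1 is low and WT replicate 1 is high across most of the 76 genes, with family medians of -0.10 and 0.08.

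The genes with the widest spread followed the same arrays. Mrps26, a small-subunit protein, had 9.33, 10.41 and 10.43 in K313 (SD 0.63) and 9.90, 9.99 and 9.85 in WT. Mrps11, the counterpart of bacterial S11, had 10.96, 11.86 and 12.14 in K313 (SD 0.62) and 11.75, 11.54 and 11.46 in WT. In both, K313 replicate 1 lay below all WT arrays and the other K313 arrays lay above them. In WT the widest spread was that of Mrpl38, with 11.05, 11.31 and 11.10 in K313 and 11.33, 10.27 and 10.99 in WT (SD 0.54), where WT replicate 1 was the highest and WT replicate 2 the lowest of all 6 arrays.

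Leaving out K313 replicate 1 raised the family's median change to 0.19 and the number of positive differences to 57, and 5 genes were then called, Mrpl4 in addition to the 4. Leaving out WT replicate 1 gave a median of 0.17, 55 positive differences and 2 calls. Leaving out K313 replicate 2, K313 replicate 3 or WT replicate 3 left Mrpl19 as the gene called, with medians of 0.04, 0.06 and 0.06. Without WT replicate 2 there were 2 calls and a median of 0.06. The median over all probe sets stayed between 0.01 and 0.02 in these fits.

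Cytosolic ribosomal protein genes and nuclear genes for oxidative phosphorylation subunits were measured on the same arrays. In the cytosolic family, 0 of 64 probe sets were called in limma, against 7.75% of all probe sets. At an unadjusted p under 0.05 there were 3 (4.69%, against 17.8%), and the median change was 0.03 (-0.04 with a common array median). The 95% interval lay within 1.5-fold for 85.9% of the cytosolic probe sets, against 44.7% of the mitochondrial family in which 4 were called. Mean levels in K313 reached 17.96 in the cytosolic and 15.29 in the mitochondrial family. The median SD was 0.11 and 0.19 in WT, and 0.17 in both families in K313. The part of level and spread in these shares was not tested. Of 85 oxidative phosphorylation probe sets, 1 was called higher (Cox6b2, by 1.72 ± 0.22) and 1 lower (Cox7b2, -0.54 ± 0.15, SE), both named after their values were seen. Cox6b2 averaged 5.09 in K313 and 3.37 in WT, and Cox7b2 averaged 4.17 in K313 and 4.71 in WT. Without detection calls, whether these levels lie above background is not known. Cox7b2 had an adjusted p of 0.0496 in limma and was not called when any 1 array was left out. The calls are 2.35% of the list, against 7.75% of all probe sets. The median change of the list was 0.06 (-0.02 with a common array median), and 63.5% of intervals lay within 1.5-fold. K313 replicate 1 was the lowest K313 array in 71.9% of the cytosolic and 75.3% of the oxidative phosphorylation probe sets, close to the 72.4% of the mitochondrial family. WT replicate 1 was the highest WT array in 31.2% of the cytosolic and 50.6% of the oxidative phosphorylation probe sets, against 69.7% in the mitochondrial family. The difference between families was not tested.

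**Figure D5:**
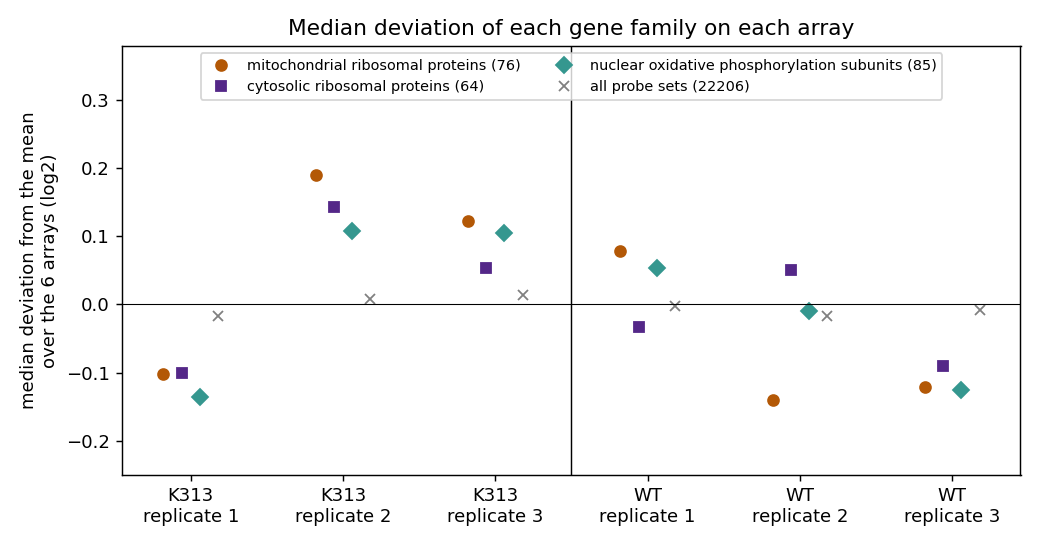
Median deviation from each gene's mean over the 6 arrays (log2, y axis) on each array (x axis, K313 left of WT) for 3 gene families and all probe sets; numbers in brackets are probe sets. All 3 families are low on K313 replicate 1 (-0.10 to -0.14), and WT replicate 2 is low for the mitochondrial ribosomal proteins (-0.14) but not for the cytosolic ones (0.05).

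Other genes of mitochondrial translation were described from lists. Over all 22206 probe sets, 7.75% were called in limma and 17.8% had an unadjusted p under 0.05. Of 4 further mitochondrial ribosomal proteins with other symbols (Dap3, Ptcd3, Chchd1 and Gadd45gip1), 0 were called in limma or at an unadjusted p under 0.05, and the median change was 0.14 (0.06 with a common array median). Chchd1 had the smallest p, with 8.94, 9.75 and 9.73 in K313 and 8.99, 9.25 and 8.85 in WT, a difference of 0.44 ± 0.23 (SE, adjusted p = 0.357). Of 27 assembly factors, 0 were called in limma, with 3 (11.1%) at an unadjusted p under 0.05. Their median change was 0.14, but 0.06 with a common array median and 0.03 without WT replicate 2. Ddx28, an RNA helicase of large-subunit assembly, had 8.71, 8.73 and 8.39 in K313 and 8.09, 7.55 and 8.10 in WT, a difference of 0.70 ± 0.19 (SE) with an adjusted p of 0.0527. Over the arrays, K313 replicate 1 was the lowest K313 array for 9 of 27 assembly factors, WT replicate 1 the highest WT array for 16 of 27, and WT replicate 2 the lowest WT array for 23 of 27.

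Among 14 measured mitochondrial translation factors, 1 was lower in K313 and 0 were higher (7.14% called, against 7.75% of all probe sets). The median change was 0.04 (-0.04 with a common array median). The lower one was Mtrf1, a member of the mitochondrial release factor family, with 7.82, 7.70 and 6.89 in K313 and 8.95, 8.55 and 9.13 in WT. All its K313 values lay below its WT values, and the difference was -1.41 ± 0.25 (SE, adjusted p = 0.00441). Of 19 genes for mitochondrial aminoacyl-tRNA synthesis, 1 was higher (5.26%), with a median change of 0.02 (-0.05 with a common array median). The higher one was Mars2, the mitochondrial methionyl-tRNA synthetase, with 9.62, 9.92 and 9.73 in K313 and 8.81, 8.92 and 9.35 in WT, a difference of 0.73 ± 0.18 (SE, adjusted p = 0.0323). The call on Mars2 ended in 7 of 14 alternatives, among them those without K313 replicates 1, 2 or 3 or WT replicates 1 or 2 (adjusted p = 0.0564, 0.140, 0.0913, 0.113 and 0.0957 in that order).

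Of 16 genes for copying and transcribing mitochondrial DNA and processing its RNA, 1 was higher and 0 lower (6.25% called, against 7.75% of all probe sets). The median change was 0.02 (-0.06 with a common array median). Top1mt, the mitochondrial topoisomerase I, had 6.95, 6.82 and 6.77 in K313 and 4.65, 4.34 and 5.09 in WT. The difference was 2.15 ± 0.20 (SE, adjusted p = 3.38e-05). Without detection calls, whether its WT level lies above background is not known. Of 8 nuclear regulators of mitochondrial genes, 0 were called in limma or at an unadjusted p under 0.05. Yy1 had the smallest p, with a difference of -0.25 ± 0.16 (SE, adjusted p = 0.492). Nrf1 and Gabpa, whose motifs were searched in the promoters, had differences of 0.08 ± 0.17 and 0.11 ± 0.17 (SE, adjusted p = 0.878 and 0.824).

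Changes were also set out by promoter motif, as values without a test. The 10 genes with an NRF1 match had a median change of 0.00 (-0.36 to 0.42), and the 57 matched genes without one had a median of 0.07. The 10 genes with an ETS match had a median of 0.14 (0.03 to 0.25), and the 57 without had a median of 0.04. Among those with an ETS match were Mrpl27, Mrpl3, Mrpl43, Mrps18c and Mrps26, with differences of 0.24, 0.20, 0.25, 0.25 and 0.14. The others with an ETS match were Mrpl18, Mrpl48, Mrpl51, Mrps22 and Mrps27, with differences of 0.03, 0.14, 0.04, 0.05 and 0.11. Of the genes with any of these 2 motifs, 0 were called. Of the 57 genes without an NRF1 match 2 were called, as were 2 of the 57 without an ETS match. Over all probe sets 7.75% were called, and 10 genes per motif are too few to set against these shares. Mrpl28, Mrpl42 and Mrps22, the 3 genes with a C/EBP match, had differences of -0.29, -0.02 and 0.05. Mrpl19 and Mrps34 had no window in the table.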

How the data were processed

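Total RNA from 6 samples was hybridised to Affymetrix Mouse Clariom S arrays. The authors deposited log2 expression values for each probe set, made with RMA and the Transcriptome Analysis Console, per the submitters' processing notes, which give no versions. Because RMA normalizes across arrays, these values cannot show a shift in the total RNA of a cell, and it compresses folds of dim probe sets. The table holds 22206 probe sets and 0 columns of unmapped samples, and 19572 probe sets have a symbol in the platform annotation. No source used here names the genome build behind the array, so coordinates are printed only for the RefSeq promoter windows. Precision is limited by the 3 arrays per group (median SE of a change 0.18), and read depth does not apply.

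All probe sets were fitted with limma 3.58.1 in R 4.3.3 (group the only term, eBayes, two-sided), and p-values were adjusted by Benjamini-Hochberg over all 22206 with a threshold of 0.05. The same code was tested on simulated data. Changes are K313 minus WT. Alternatives were quantile normalization, a common array median, leaving out the 30% of probe sets with the lowest mean, an intensity trend with robust prior, array weights, ordinary variance, a replicate block, probe sets with 1 symbol, and leaving out each array. Promoters were searched with Python 3.11.15.

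The family, the other gene lists and the tests were chosen with earlier results of these data known. Genes named by rule were the family's called genes, the 6 largest changes in each direction without overlap, the 3 highest and 3 lowest by level, those whose call changed in an alternative, and from each list of other mitochondrial translation and gene expression genes the called genes or the 1 with the smallest p. The cytosolic ribosomal and oxidative phosphorylation families served for counts and medians. Other genes were named after their values were seen. The labels name no batch, and none was tested.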

Additional observations from a re-analysis of the deposited data

How the results depend on the processing

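The number of genes called higher, 4, was 3 to 5 under quantile normalization, a common median, removal of low probe sets, an intensity trend, array weights and probe sets with 1 symbol. It was 1 with ordinary variance, where 496 of all probe sets were called in place of 1720, and 2 with the replicate number as a block. It ranged from 1 to 5 when 1 array was left out, while calls over all probe sets ranged from 1228 to 1465. The number called lower was 0 in all 14 alternatives. With ordinary variance, Mrpl58, Mrps34 and Mrpl19 had adjusted p-values of 0.248, 0.0668 and 0.0668, and Mrpl55 0.184. Mrpl55 also lost its call with a common median (0.0715) and an intensity trend (0.0617). Under the block, Mrpl58 (0.0513) and Mrpl55 (0.0661) were not called. The replicate numbers showed no sign of pairing the samples. Deviations from the group means correlated at -0.06, 0.03 and -0.06 between arrays of the same number. No K313 array correlated best with the WT array of its own number. With 3 arrays per group these correlations are tied to each other, so they cannot show that the samples were unpaired. The family's median change stayed positive in all alternatives (0.02 to 0.19), and the small-subunit median moved to 0.295 without K313 replicate 1. The medians of the comparison families moved when 1 array was left out, between -0.02 and 0.09 for cytosolic ribosomal proteins and between 0.01 and 0.145 for oxidative phosphorylation subunits, and those of translation factors between -0.03 and 0.12. Mtrf1 lost its call with ordinary variance (0.176). Ddx28 passed in 4 alternatives (0.0280 to 0.0467). No reversal of a called gene occurred. Signal over background could not be judged, since detection calls were not used here.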
